A study of Mus musculus with 4 samples.

Results

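The axon guidance ligands and receptors were examined for H3K27ac, the acetylated form of lysine 27 in histone H3, in neural stem cells with and without the chromatin protein Smchd1. Members were chosen by name among the RefSeq protein-coding genes of chromosomes 1 to 19 and X: the class 3 to 7 semaphorins, plexins, neuropilins, Eph receptors, ephrins, Slit and Robo genes, netrins 1 to 5, the Unc5 genes and Dcc. They were 69 of 21631 genes, 35 ligands and 34 receptors by the usual role of each family. The naming rule itself uses no measured value. For each gene, peaks overlapping the gene body extended by 10 kb on both sides were taken, which gave 638 of the 91557 peaks in deleted cells and 445 of the 63613 peaks in control cells.

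H3K27ac chromatin was immunoprecipitated and sequenced (ChIP-seq) once from deleted and once from control cells, and each ChIP library had an input library of whole-cell extract. The cells were grown from female embryos at E14.5 that carried 1 deleted and 1 floxed Smchd1 allele (Smchd1 del/fl), with a maternal X chromosome of 129 origin bearing the Xist deltaA allele and a paternal Castaneus X chromosome, in both groups. Smchd1 was deleted in culture by a retrovirus, MSCV-Cre-puro, with puromycin from 24 h and harvest on day 7, and the control cells were not transduced, so that deletion, infection and selection cannot be told apart. The genotype field gives del/del for the deleted and del/fl for the control ChIP, and both titles carry the number 1. The labels disagree in places: the antibody field names trimethylated H3K27, the title of the control ChIP reads fl/fl, the control input is given as del/del, and the strain field names C57BL/6. There was 1 library per group and no replicate, so every difference given here is between these libraries, and no test between conditions was possible. Confidence intervals are exact, at 95%, and cover counting error only.

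Guidance molecules steer growing axons and migrating cells. Secreted semaphorins act through neuropilin and plexin receptors and membrane-bound ones mostly through plexins alone. Ephrins signal on contact with Eph receptor kinases, Slits repel through Robo receptors, and netrins attract through Dcc and repel through the Unc5 family. In the embryonic forebrain several of these families are also made by neural progenitors, where Eph and ephrin signalling is known to affect proliferation. Acetylated H3K27 is laid down at the start sites of genes in use and at distal enhancers within and between genes.

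The filtered ChIP libraries held 54194233 tags for deleted and 42277672 for control cells, a ratio of 1.28, and the deleted list was 1.44 times as long as the control list (95% interval 1.42 to 1.45). The cells were checked against marker genes by the same windows. All 10 neural stem cell markers had a peak in both lists, with 99 deleted and 98 control peaks in sum. Of 8 neuronal markers 5 had a peak in both lists, with 39 and 27 peaks: Map2 (up to 8.86-fold and 9.48-fold), Gap43 (7.22-fold and 7.26-fold), Rbfox3, Syt1 and Tubb3. Dcx, Snap25 and Stmn2 had none in either. Peaks in both lists were also found at all 4 astrocyte, 3 of 4 oligodendrocyte, 1 of 4 fibroblast, 3 of 4 microglial and 2 of 4 endothelial markers. Since these windows include neighbouring genes and enhancers, a peak there is not a measure of expression.

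Most guidance genes carried H3K27ac in both cultures. A peak was present in both lists for 57 of the 69 members, or 82.6% (71.6 to 90.7), beside 64.4% of all protein-coding genes. In the gene body alone, without the 10 kb flanks, this held for 52 of the 69, beside 56.4% of all genes. Epha4, Ephb6, Robo2, Sema3c, Slit3 and Unc5d had peaks in deleted cells alone, 8.7% of members (3.26 to 18) beside 5.48% of all genes. No member had peaks in control cells alone, which allows a share of up to 4.35% at a limit of 3 counts and 5.21% at the exact upper bound, beside 0.869% of all genes. Efna5, Epha7, Epha8, Sema3e, Sema4f and Slit2 had none in either list, among them the ligands Slit2 and Sema3e and the receptors Epha7 and Epha8. Guidance genes are long, with a median body of 46.3 kb beside 17.3 kb for all genes, but held fewer deleted peaks per 100 kb of window, 4.47 beside 6.91. Across the 69 members body length and number of deleted peaks had a Spearman's rho of -0.147, as a description. Of the 34 members over 50 kb, 25 (73.5%) had peaks in both lists beside 77.9% of all genes of that length, 5 (14.7%) in the deleted list alone beside 6.9%, and 0 in the control list alone beside 0.648%. The share with peaks in both lists was thus above the background over all members and slightly below it among long genes.

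In number, guidance gene peaks differed between the lists as all peaks did. The ratio of deleted to control peaks was 1.43 (1.27 to 1.62) for the members and 1.41 (1.39 to 1.42) for the windows of all protein-coding genes. With the deleted list cut, by strength, to the length of the control list, the ratios were 0.978 and 0.994, in a setting that fixes the ratio of all peaks at 1.0. More peaks were found in deleted than in control cells at 46 members, equal numbers at 8 and fewer at 9, with none in either list at the other 6. Peak numbers in the lists followed each other across the 69 members (Spearman's rho 0.903, a description over genes that share their libraries). Peaks without any overlap in the other list, called list-only here, were 348 of the 638 deleted peaks, or 54.5% (50.6 to 58.5), beside 48.7% in all gene windows. In control cells 125 of 445 were list-only, or 28.1% (24.0 to 32.5), beside 22.9%. The deleted-only peaks were mostly weak: their median fold enrichment over input, the peak caller's own value within 1 library, was 3.33, beside 4.37 for shared peaks of the same list. For control peaks these medians were 3.63 and 4.19. No list-only peak of a member exceeded 6.04-fold in deleted or 5.45-fold in control cells.

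**Figure D1:**
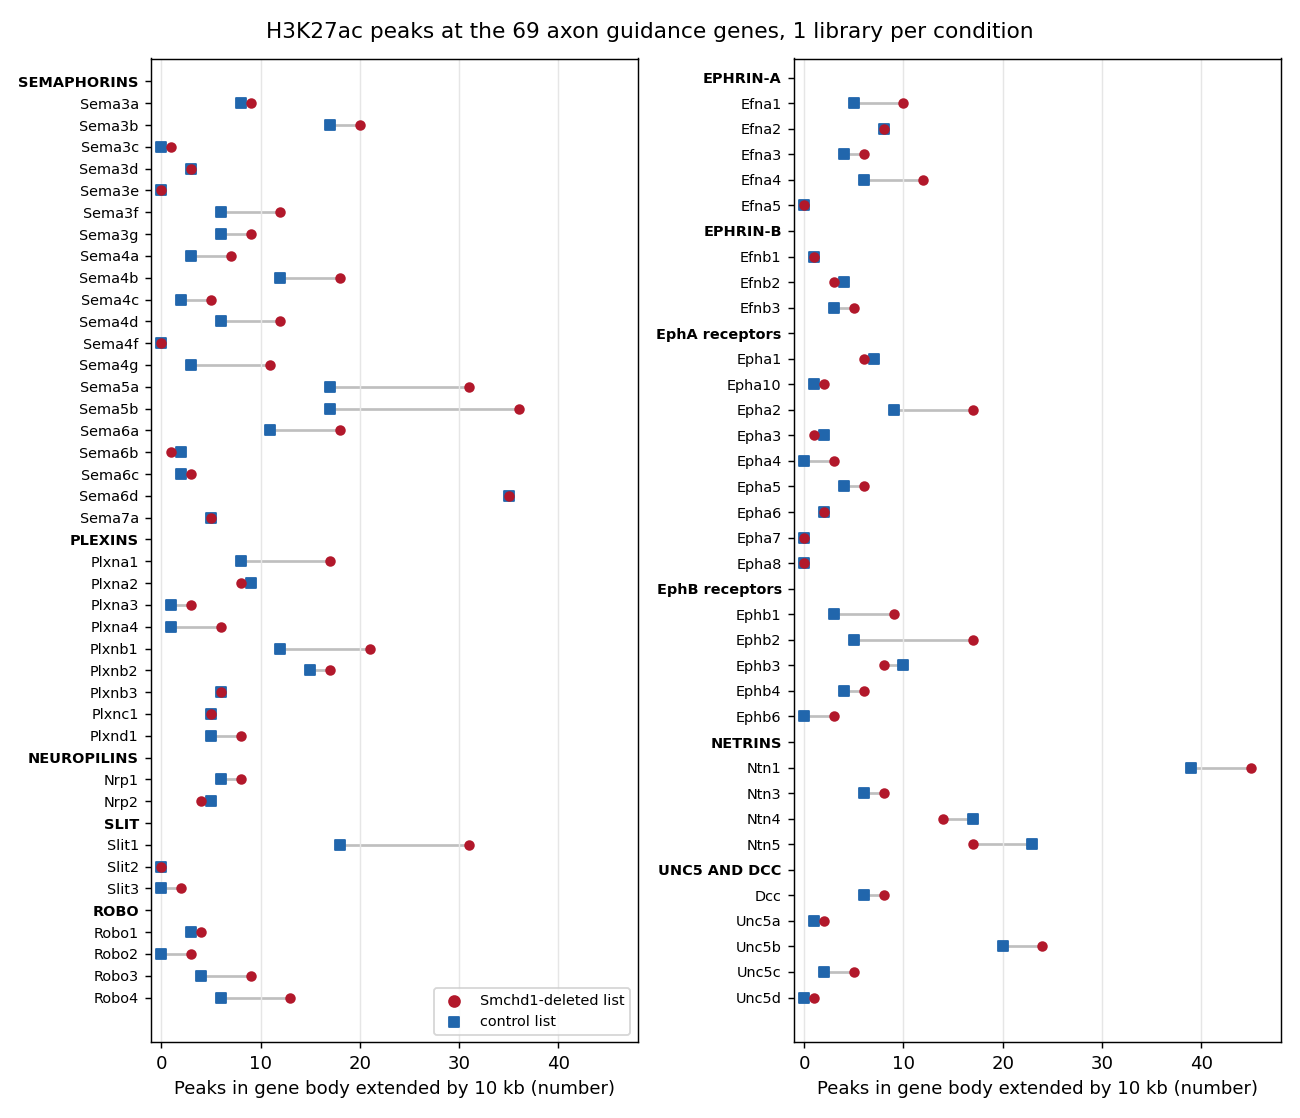
Number of H3K27ac peaks (horizontal axis) in the body of each of the 69 members extended by 10 kb, by role group. Red circles are the deleted list, blue squares the control list, joined by a grey line, with 1 library each. Ntn1 reaches 45 and 39 peaks, while Sema5b shows one of the widest gaps, 36 against 17.

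Start sites of guidance genes had a peak in deleted cells alone more often than those of all genes. RefSeq start sites were at hand for 59 members, and a peak within 1 kb of one was counted. Of these 59 genes, 27 (45.8%) had a start-site peak in both lists beside 51.2% of all genes, and 16 (27.1%) in neither. In the deleted list alone a start-site peak was present for 15 members, or 25.4% (15 to 38.4), beside 5.11% of all genes. In the control list alone it was present for 1 member, the ephrin gene Efna1, or 1.69%, beside 0.839%. These 15 genes were named after their values were seen, and all 24 of their start-site peaks were list-only, with pileups at the summit of 15 to 29 tags where the lowest in the deleted list was 13. Of the 15 genes, 11 had a control peak elsewhere in the window, so in these the start site, and not the whole window, lacked a control peak.

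The 15 genes came from several families, each with too few members for family shares to be compared. The 15 included all 3 Unc5 genes with a known start site, repulsive netrin receptors: Unc5b at 4.03-fold over input, Unc5a at 3.19-fold and Unc5c at 2.85-fold. Both Robo2 (3.86-fold) and Robo4 (4.83-fold), Slit receptor genes of neurons and of endothelium, were among them, out of 4 Robo genes. Of 5 EphB receptors there were 2, Ephb6, which encodes an Eph receptor without kinase activity, at 5.04-fold, and Ephb1 at 3.36-fold, and of 9 EphA receptors 1, Epha4 at 3.86-fold. Of 7 plexins there were 2, Plxna3 at 4.70-fold and Plxnc1, the receptor of Sema7a, at 4.17-fold. The semaphorins gave 4 of 17: Sema5a at 4.87-fold, Sema4g at 4.53-fold, Sema3c at 3.86-fold and the membrane-anchored Sema7a at 2.69-fold. Among 5 ephrin-A genes there was Efna3 at 4.2-fold. Netrins gave 0 of 3, and ephrin-B, neuropilin and Slit genes 0 of 2 each. Receptors contributed 10 of 30 and ligands 5 of 29, beside 5.11% of all genes.

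These start-site peaks were weak for start sites: their median was 4.03-fold, above the 3.53-fold of all deleted peaks but below the 7.43-fold of all genes' start sites with a deleted peak. With the highest start-site enrichment in either list below 5-fold, 14 of 20 members (70.0%) had the peak in the deleted list alone, beside 43.3% of all genes with such weak starts. At 5-fold or more it was 1 of 23 members (4.35%), Ephb6, beside 1.07% of all genes. Weak starts made up 46.5% of the members with a start-site peak and 18.6% of all such genes. Over the 27 members with a start-site peak in both lists the median enrichment was 6.38-fold in deleted and 6.25-fold in control cells. Over every member with a start-site peak in the list concerned, which are different genes in each list, it was 4.87-fold and 6.25-fold, beside 7.43-fold and 7.06-fold over all genes. With lists of equal length 13 of the 15 kept a start-site peak in deleted cells alone, 22.0% of members beside 3.68% of all genes, and Sema7a and Unc5c did not. With −log10 q of at least 5 there were 13 such members (22.0% beside 4.73%), 11 of them among the 15. Ephb1, Sema7a, Unc5a and Unc5c were then lost, and Epha2 and Nrp2 gained. A start-site window of 2500 bases again gave 15 members (25.4% beside 5.55%), 13 of them the same. Robo4 and Sema4g, which had a control peak in the wider window, were lost, and Plxnd1 and Sema4d gained. Counting only peaks of at least 5-fold in both lists left 3 members (5.08% beside 4.52%), Ephb6, Epha2 and Ntn5. In the control list alone were then 3 others (5.08% beside 2.0%), Efna4, Ephb4 and Sema6c. The greater ChIP depth of the deleted cells moves with these counts, and its part in them was not tested. Lists of equal length fix the number of peaks and not the depth of the libraries.

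**Figure D2:**
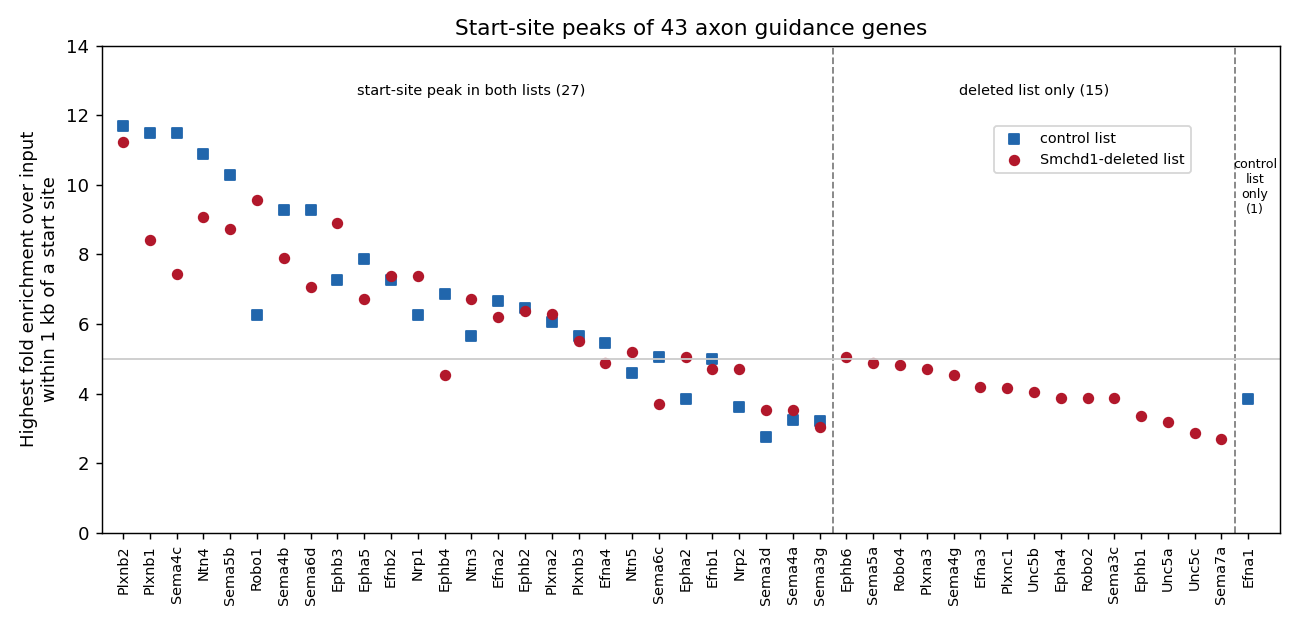
Highest fold enrichment over input of a peak within 1 kb of a start site (vertical axis) for the 43 members with such a peak, in the deleted list (red circles) and the control list (blue squares), with a grey line at 5. The 15 genes with a start-site peak in deleted cells alone lie between 2.69 and 5.04, below most of the 27 genes with one in both lists, which reach 11.2 in deleted and 11.7 in control cells.

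**Figure D3:**
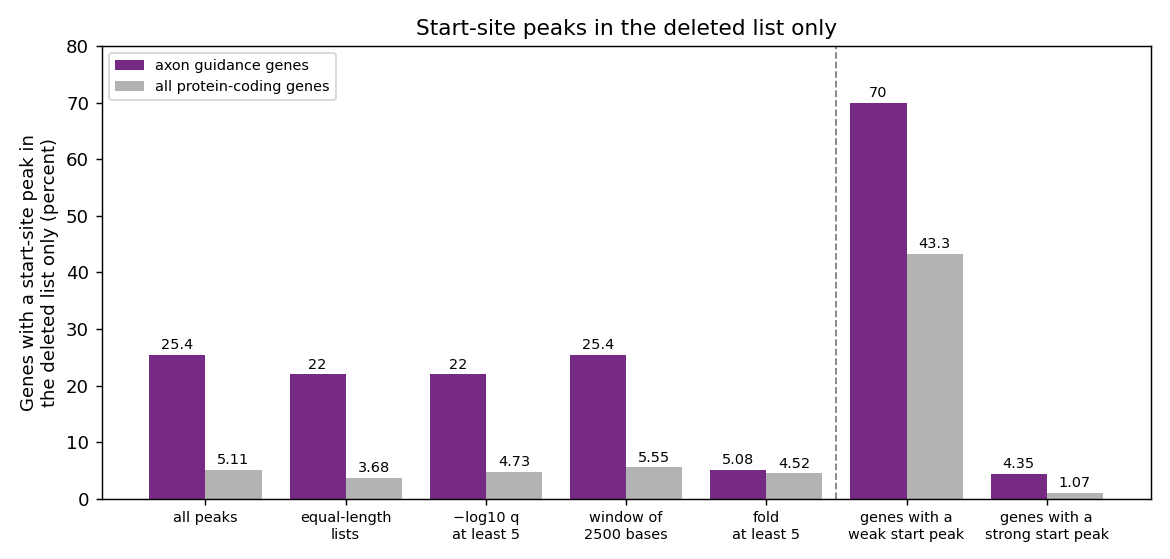
Percent of genes with a start-site peak in the deleted list alone (vertical axis), for guidance genes (purple bars) and all protein-coding genes (grey bars), under 5 settings and, to the right of the dashed line, among genes whose start-site peak is weak (below 5-fold) or strong. The members' 25.4% stands above the 5.11% of all genes, and with peaks of at least 5-fold alone the bars are 5.08% and 4.52%.

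Upstream sequences are shown for 3 start sites with a peak in the deleted list alone and 2 with a peak in both lists, as a pair of Eph and a pair of Robo receptors with the X-linked plexin. Each is the 250 bases before the RefSeq start site, 5′ to 3′ on the gene's strand, on GRCm38.p6 (mm10), and capitals mark matches to a GC box (GGGCGG) or an E-box (CAGCTG) on either strand.
Ephb6, chr6:41605261-41605510, plus strand: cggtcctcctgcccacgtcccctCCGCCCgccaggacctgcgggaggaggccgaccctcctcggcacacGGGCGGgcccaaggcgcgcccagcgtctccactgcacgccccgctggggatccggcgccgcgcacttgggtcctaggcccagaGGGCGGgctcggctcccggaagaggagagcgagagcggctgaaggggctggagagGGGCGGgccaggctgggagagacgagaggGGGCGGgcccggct
Plxna3, chrX:74328816-74329065, plus strand: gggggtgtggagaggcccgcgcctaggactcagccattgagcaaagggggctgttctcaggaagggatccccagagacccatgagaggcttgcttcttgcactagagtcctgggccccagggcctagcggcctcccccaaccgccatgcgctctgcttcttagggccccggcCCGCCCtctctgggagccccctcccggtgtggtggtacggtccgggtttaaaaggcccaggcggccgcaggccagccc
Robo2, chr16:74411826-74412075, minus strand: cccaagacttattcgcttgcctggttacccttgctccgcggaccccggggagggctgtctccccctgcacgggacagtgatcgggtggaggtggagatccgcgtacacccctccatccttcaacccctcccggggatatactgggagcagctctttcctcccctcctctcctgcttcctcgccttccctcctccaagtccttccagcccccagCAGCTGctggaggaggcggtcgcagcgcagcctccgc
Ephb2, chr4:136836013-136836262, minus strand: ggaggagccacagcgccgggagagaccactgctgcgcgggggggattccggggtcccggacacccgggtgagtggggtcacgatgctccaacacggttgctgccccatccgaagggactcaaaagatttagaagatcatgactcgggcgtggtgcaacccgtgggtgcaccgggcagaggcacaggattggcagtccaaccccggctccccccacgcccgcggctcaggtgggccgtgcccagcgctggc
Robo1, chr16:72662899-72663148, plus strand: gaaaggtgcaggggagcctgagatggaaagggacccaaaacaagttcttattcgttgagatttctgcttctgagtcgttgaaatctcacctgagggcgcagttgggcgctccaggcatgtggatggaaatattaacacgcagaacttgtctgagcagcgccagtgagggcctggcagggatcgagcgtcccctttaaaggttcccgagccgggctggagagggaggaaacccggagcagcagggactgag
Deleted peaks covered 96 bases of the Ephb6, 188 of the Plxna3 and 222 of the Robo2 stretch, and control peaks none. At Ephb2 deleted peaks covered 213 and control peaks 207 bases, and at Robo1 250 and 214 bases. The Ephb6 stretch holds 5 GC boxes, Plxna3 1, and Robo2 1 CAGCTG, while the stretches of Ephb2 and Robo1 have no match. The stretches were picked as examples, and motif shares were not computed by start-site state, so these matches do not set the states apart.

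GC-rich starts were common among the guidance genes. In RefSeq promoter windows of 300 bases, GGGCGG was found on either strand in 53 of 75 member windows (70.7%) and in 46.7% of all promoters, and TATAAA in 2 (2.67%) and 12.7%. ACAAAG, as bound by Sox factors, was found in 13.3% beside 16.8%, ACAATG in 10.7% beside 10.5%, CAGCTG in 16.0% beside 15.7% and CAGATG in 6.67% beside 14.4%. The NFI motif was in 0 member windows and 0.0333% of all promoters. The median number of CG dinucleotides was 24 at members with a start-site peak in deleted cells alone, 23 at members with one in both lists and 19.5 at members with none. Counts ranged widely in each state, from 2 to 42, from 3 to 37 and from 2 to 56. Over all genes the medians were 15, 23 and 4. By median, guidance genes without a start-site peak, or with one in deleted cells alone, thus had CG-richer starts than all genes in the same state.

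Among the ligands, the semaphorin family held the most peaks. Its 20 genes gave 236 and 155 peaks, 1.52 times as many in deleted cells (1.24 to 1.88), and 17 had peaks in both lists, Sema3c in the deleted list alone, and Sema3e and Sema4f in neither. Sema5b and Sema5a encode transmembrane semaphorins with thrombospondin repeats. Sema5b (chr16:35541154-35664261) had 36 deleted and 17 control peaks, 21 and 2 of them list-only, which covered 13.7 and 6.03 kb. Its start-site peak nevertheless had a lower fold enrichment in deleted cells, 8.73-fold against 10.3-fold, at summit pileups of 51 and 50 tags. Its 21 deleted-only peaks, all inside the gene, ranged from 2.83-fold to 4.5-fold. Sema5a (chr15:32244813-32696341) had 31 and 17 peaks, 21 and 5 list-only, and the strongest deleted-only peak of any member, 6.04-fold at chr15:32565395-32565678 inside the gene. Sema6d, a transmembrane ligand of plexin A1, had 35 peaks in each list, with 16 deleted-only and 10 control-only, so equal numbers did not mean the same peaks.

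The strongest semaphorin peak was at Sema6a, which reached 10.9-fold in deleted and 13.3-fold in control cells, with 18 and 11 peaks. Sema4c was next in the control list, at 11.5-fold, but reached 7.44-fold in the deleted list, from 2 and 5 peaks, where Sema6d was next at 10.6-fold. Summit pileups of these Sema4c peaks were 56 tags in control and 66 in deleted cells, in libraries of unequal depth. The lower fold enrichment in deleted cells thus did not come with a lower pileup. Sema3b, a secreted semaphorin, had 20 and 17 peaks reaching 9.0-fold and 10.9-fold, but Ifrd2 and Lsmem2 start within its window. Sema4b had 18 and 12 peaks and Sema4g 11 and 3, and the highest of the latter lay at the neighbouring starts of Mrpl43 and Twnk. Sema6b was one of 6 members with more control-only than deleted-only peaks, 1 deleted peak of 3.02-fold and 2 control peaks of up to 4.24-fold. Sema3c, a secreted ligand of plexin D1, had 1 deleted peak, of 3.86-fold, 415 bases upstream of its start.

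Most of their plexin and neuropilin receptor genes carried H3K27ac in both cultures. The windows of all 9 plexins and both neuropilins had peaks in both lists, with 91 and 62 plexin peaks (ratio 1.47, 1.05 to 2.06) and 12 and 11 neuropilin peaks. The only control peak of Plxna3 lay at the start of the neighbouring Lage3, and by gene body alone 8 plexins had peaks in both lists. Plxnb2, which acts in neural progenitors of the embryonic brain, had the highest plexin start, 11.2-fold and 11.7-fold, from 17 and 15 peaks. Plxnb1, a receptor of Sema4d, had 21 and 12 peaks and reached 8.43-fold and 11.5-fold at its start. Plxna1 had 17 and 8 peaks, 11 and 1 list-only, with the highest at the start of the neighbouring Gm40415. Plxna2 had 8 and 9 peaks, none list-only in either, reaching 7.56-fold and 6.05-fold. Nrp1, the co-receptor of Sema3a, had 8 and 6 peaks of up to 7.39-fold and 6.25-fold, and Nrp2 4 and 5 of up to 6.04-fold and 4.44-fold. By fold enrichment, which is relative to the local background, both neuropilin genes thus had their highest peak in deleted cells. Plxnb1 and Plxnb2 had it in control cells. Summit pileups of these peaks, in libraries of unequal depth, were higher in deleted cells throughout. They were 43 and 30 tags at Nrp1, 35 and 21 at Nrp2, 58 and 56 at Plxnb1, and 66 and 57 at Plxnb2.

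The 3 X-linked members are of interest because the Smchd1 protein is known for its place on the inactive X chromosome. Efnb1, the ligand gene of craniofrontonasal syndrome, had 1 peak in each list, of 4.70-fold and 5.0-fold at its start. Plxnb3, a receptor of Sema5a, had 6 peaks in each, of up to 5.50-fold and 6.0-fold. Plxna3 had 3 deleted peaks and 1 control peak: both lists held the peak at the start of the neighbouring Lage3, 5.33-fold and 6.17-fold, and the deleted list alone held 2 peaks at the start of Plxna3 itself, of 4.70-fold and 3.86-fold. So Plxna3 differed between the lists at its own start, while Efnb1 and Plxnb3 differed little. The lists do not separate the 2 X chromosomes.

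Of the ephrin ligands, Efna1, Efna3 and Efna4 lie together on chromosome 3. The 5 ephrin-A genes had 33 deleted and 21 control peaks and the 3 ephrin-B genes 9 and 8, and Efna5 had none. Efna1 had 10 and 5 peaks and the highest value of the family, 10.1-fold and 11.1-fold, but at the start of its neighbour Dpm3. At its own start Efna1 had a control peak of 3.83-fold and no deleted peak. Efna3 and Efna4 lie side by side and share peaks: Efna4 had 12 and 6 in its window, Efna3 6 and 4, both with a highest value of 6.21-fold and 5.50-fold. Efna2 had 8 peaks in each list, at up to 6.21-fold and 6.66-fold. Efnb2, which marks arterial endothelium and many progenitors, had 3 and 4 peaks and a start of 7.39-fold and 7.26-fold. The Efna2 and Efnb2 starts therefore had close values in both lists.

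Eph receptors, the largest family of receptor tyrosine kinases, had ratios of deleted to control peaks that were not separated from the 1.41 of all gene windows. The 5 EphB genes had 43 deleted and 22 control peaks (ratio 1.95, 1.14 to 3.43) and the 9 EphA genes 37 and 25 (ratio 1.48). Ephb2 (chr4:136647536-136836326), a receptor of neural progenitors and growing axons, had 17 and 5 peaks, 14 and 2 list-only. Its start-site peak was alike in the lists, 6.38-fold and 6.46-fold, and the 14 deleted-only peaks, of 2.43-fold to 4.70-fold, were all inside the gene. Ephb3 went the other way, with 8 and 10 peaks and 4 and 5 list-only, although its start was 8.90-fold in deleted and 7.26-fold in control cells. Ephb1 had 9 and 3 peaks, among them a deleted-only peak of 5.21-fold at chr9:102212063-102212361. Ephb6 had 3 deleted peaks within 1 kb of its start, of 4.03-fold, 4.03-fold and 5.04-fold, and no control peak in its window.

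In the EphA class Epha2 had the most peaks, 17 and 9, and a start of 5.04-fold and 3.83-fold. Epha5, a neuronal receptor of ephrin-A ligands, reached 6.72-fold and 7.87-fold at its start with 6 and 4 peaks. Epha1 had 6 and 7 peaks of up to 9.0-fold and 8.68-fold, the highest of them at the start of Zyx. Epha3 had 1 and 2 peaks, at 4.86-fold and up to 4.04-fold. Epha6 had 2 and 2, the highest at the start of Arl6 and none inside the Epha6 body in either list. Epha4, a receptor for ephrins of both classes, had 3 deleted peaks, of 3.86-fold and 3.57-fold at its start and 4.2-fold in the upstream flank, and no control peak. Epha4 and Ephb6 were thus the Eph genes with H3K27ac peaks in deleted cells alone.

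**Figure D4:**
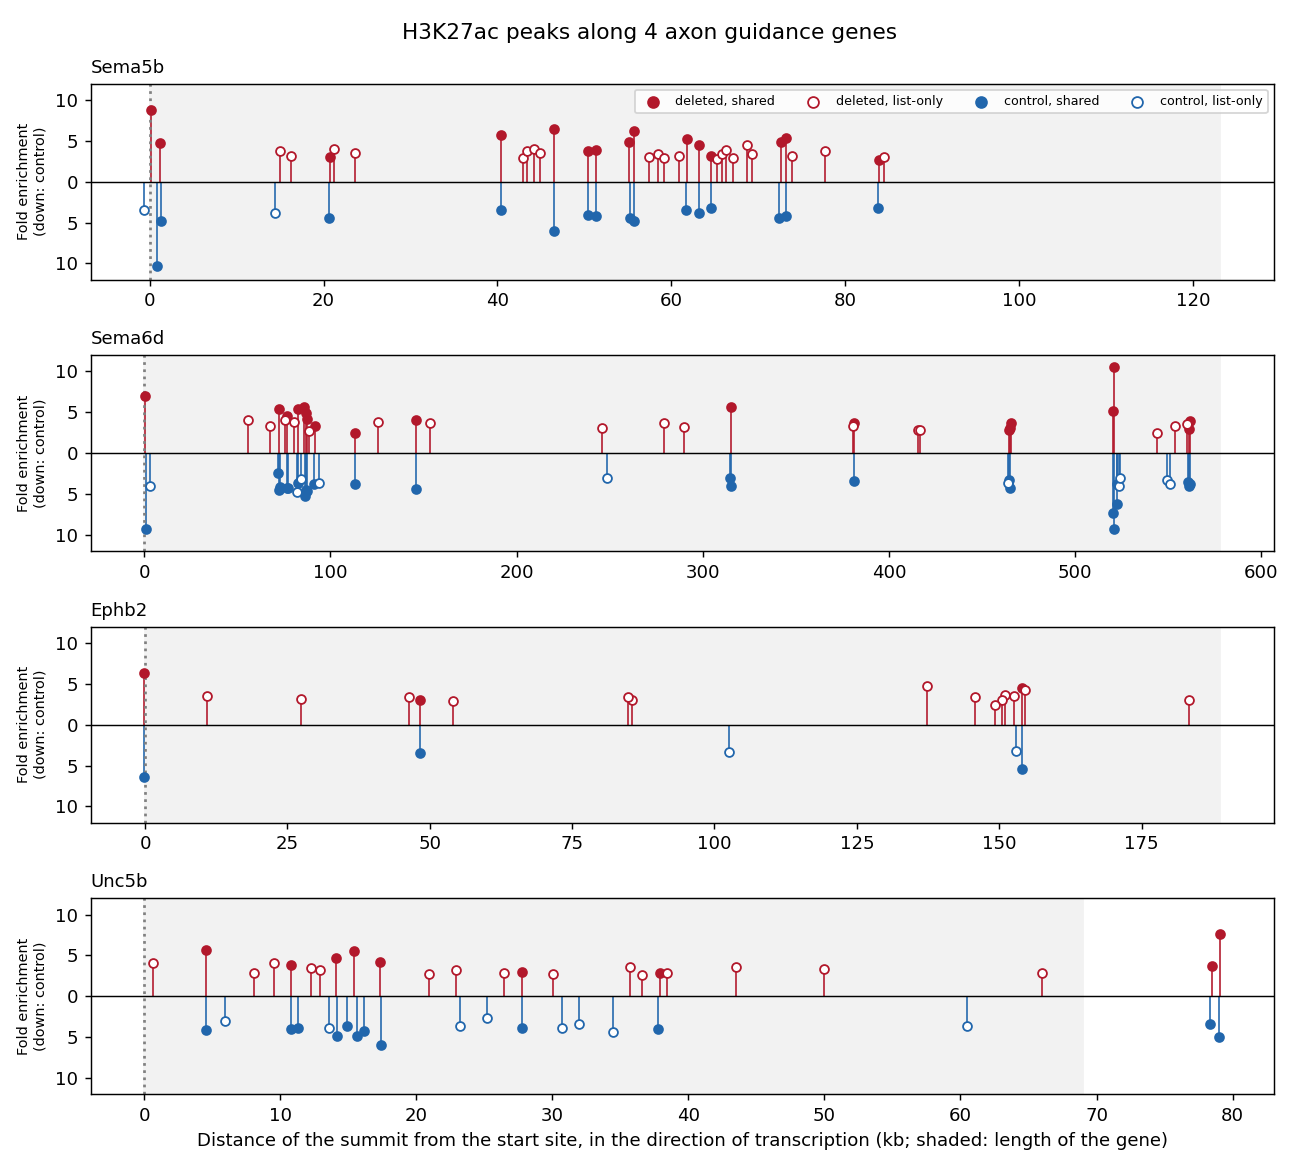
Fold enrichment over input of each H3K27ac peak against its distance in kb from the first start site, for Sema5b, Sema6d, Ephb2 and Unc5b, with deleted peaks drawn upward and control peaks downward; filled points overlap a peak of the other list and open points do not, and shading spans the gene. At Ephb2 the start peaks mirror each other at 6.38 and 6.46 while 14 open deleted points lie along the gene body.

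Netrins had about as many control as deleted peaks. The 4 genes gave 84 and 85, a ratio of 0.988 (0.722 to 1.35), beside 1.41 for all gene windows. Of these, 32 deleted (38.1%) and 20 control peaks (23.5%) were list-only, beside 48.7% and 22.9% in all gene windows. Ntn1, the netrin of the floor plate and ventricular zone, had the most peaks of any member, 45 and 39, over 25.6 and 18.3 kb, reaching 9.57-fold and 9.48-fold. Of its 45 and 39 peaks, 13 and 11 lay in the flanks beyond the gene body, at up to 8.5-fold and 7.26-fold. The strongest deleted-only peak of Ntn1 was 5.21-fold at chr11:68313980-68314501, and the strongest control-only one 4.6-fold at chr11:68235481-68235725. Ntn4, a netrin of basement membranes, had 14 and 17 peaks, 5 and 7 list-only, and a start of 9.07-fold and 10.9-fold. Ntn5 had 17 and 23 peaks, in a window shared with Car11 and Sec1, of up to 7.89-fold and 8.0-fold. Ntn4 and Ntn5 were thus the netrin genes with fewer deleted than control peaks. Ntn3 had 8 and 6 peaks, of up to 6.72-fold and 5.65-fold.

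The netrin receptors had 40 deleted and 29 control peaks over the 4 Unc5 genes and Dcc. Unc5b, also a receptor of vascular endothelium, had 24 and 20 peaks, 15 and 8 list-only. Its highest peak in deleted cells, 7.56-fold, lay at the start of Slc29a3, whereas its own start had 4.03-fold in deleted cells and no control peak. Dcc, the receptor for netrin attraction, had 8 and 6 peaks of up to 5.83-fold and 7.06-fold, with 3 and 1 list-only, all inside the gene body. No start site was at hand for Dcc, so a start-site peak could not be told from others. Its highest peak, shared by the lists, lay close to an end of the body (chr18:72350442-72351027 in deleted cells, body to 72351228). Unc5c had 5 and 2 peaks of up to 4.53-fold and 3.63-fold. Unc5a had 2 and 1 peaks, none overlapping, and its control peak of 5.45-fold at chr13:54956379-54956569 was the strongest control-only peak of any member. Unc5d, a receptor of migrating cortical neurons, had 1 peak, in deleted cells alone, of 4.70-fold at chr8:28741973-28742506 inside the gene.

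In the Slit and Robo system peaks were unevenly spread. Slit1 had 31 deleted and 18 control peaks, 18 and 4 list-only, of up to 5.29-fold and 5.80-fold, whereas Slit2 had none and Slit3 had 2 deleted peaks, of 3.69-fold and 2.85-fold, both inside the gene. The 4 Robo genes had 20 and 9 peaks, a ratio of 2.22 (0.967 to 5.54). Robo1 had 1 start site at hand, inside the gene, with a peak in both lists, of 9.57-fold and 6.25-fold. Robo2, over 1555 kb long, had 3 deleted peaks and no control peak, with 3.86-fold and 3.19-fold at one of its 3 start sites inside the gene and 3.19-fold elsewhere in the body. Robo3 and Robo4 are neighbours and share peaks: Robo4 had 13 and 6 and Robo3 9 and 4, both of up to 5.71-fold and 5.60-fold. Robo1 and Robo2, the main neuronal Slit receptors, thus differed at the start sites at hand: Robo1 had a start-site peak in both lists and Robo2 in the deleted list alone.

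Counting genes with at least 5 peaks in sum, a limit set with the values known, 15 of 50 members (30.0%) had at least 2 times as many deleted as control peaks, beside 20.7% of all genes, and 0 had at least 2 times as many control peaks, beside 1.29%. The 15 were Efna1, Efna4, Ephb1, Ephb2, Plxna1, Plxna4, Robo3, Robo4, Sema3f, Sema4a, Sema4c, Sema4d, Sema4g, Sema5b and Unc5c. By role, receptors had a ratio of 1.54 (1.25 to 1.89) and ligands of 1.38 (1.18 to 1.61), intervals that overlap and both include the 1.41 of all gene windows. The largest excess of deleted-only over control-only peaks was 19, at Sema5b, followed by 16 at Sema5a, 14 at Slit1, 12 at Ephb2, 10 at both Ntn1 and Plxna1, and 9 at both Sema6a and Plxnb1.

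Where the extra deleted peaks lay was described by position. At the members' own starts lay 65 peaks in deleted cells, 41.5% of them list-only, and 52 in control cells, 13.5% of them list-only. In all gene windows 48.7% and 22.9% of the peaks at any position were list-only. This share was not computed by position for all genes. Starts of other genes within the windows held 32 and 29, with 21.9% and 6.9% list-only. Inside the member genes away from starts there were 443 and 295, with 58.2% and 31.2% list-only, and in the flanks 98 and 69, with 57.1% and 34.8%. Members without a start-site entry have their start counted inside the gene. Among these 4 classes of member peaks the list-only share was lowest at the starts of neighbouring genes, in both lists. The highest of the control-only peaks after that of Unc5a were at Sema6d (4.78-fold, chr2:124171654-124171975) and beside Efna3 (4.64-fold, chr3:89306014-89306622).

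The remaining genes of the pathway, 44 co-receptors, adhesion molecules and cytoplasmic effectors listed by textbook role, were mostly acetylated in both cultures. Of these, 41 had peaks in both lists, beside 64.4% of all genes, L1cam, Cntn2 and Ngef in neither, and 0 in 1 list alone. Start-site peaks were in both lists for 24 of 33, in deleted cells alone for 2, beside 5.11% of all genes, and in control cells alone for 0. The 2 were Draxin, a secreted guidance protein that binds netrin receptors, at 4.03-fold, and Dpysl5, a cytoplasmic semaphorin effector, at 4.2-fold. Peaks numbered 695 in deleted and 463 in control cells, with 88 and 48 at Fyn, a Src-family kinase, 71 and 46 at Trio, a guanine nucleotide exchange factor, and 53 and 40 at Srgap2, a Robo effector. The 2 of 33 pathway genes are thus near that background, and the difference from the 15 of 59 ligands and receptors was not tested.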

How the data were processed

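H3K27ac ChIP-seq of 1 deleted and 1 control culture was used, 4 libraries with the inputs. Per the submitters' processing notes, bcl2fastq and Bowtie 0.12.9 were used with mm10. MACS2 2.1.0.20140616 was run by the authors once for each ChIP library with its input as background; per the file headers the q-value limit was 0.05, tags were 80 bases long and duplicates were reduced to 1 tag. From the authors' runs come the pileup signal at each summit, −log10 p, −log10 q and fold enrichment. Fold enrichment is a ratio to the local background of the same library, and the authors' values were not rescaled between libraries here. Filtered input tags numbered 77101643 and 80601280, per the file headers.

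Peaks were joined to RefSeq genes of GRCm38.p6, by position, with Python 3.11.15 and pandas 2.3.3. Start sites came from the RefSeq promoter table, which had 59 of the 69 members and did not hold Dcc, Efnb3, Ntn1, Plxna1, Plxna4, Sema3b, Sema3f, Sema6a, Slit1 and Unc5d. A peak was shared at an overlap of at least 1 base. Intervals are Clopper-Pearson, with SciPy 1.17.1. The join and the states were tested on simulated peaks. Named are members with a peak in 1 list only, X-linked members, the 5 with most peaks in each list, up to 3 of each role group with the highest fold enrichment, the 8 with the largest excess of deleted-only peaks, those with more control-only peaks, and genes of the 6 strongest list-only peaks. Others were named after their values were seen. Members and lists were chosen with earlier results of these data known. The alternatives tried were lists of equal length, stricter −log10 q and fold limits, gene windows and start-site windows of other sizes, and windows or peaks away from other genes' starts.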

Additional observations from a re-analysis of the deposited data

How the results depend on the processing

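With lists of equal length the ratio of deleted to control peaks turned to 0.978 for all members, 0.969 for ligands and 0.994 for receptors. The list-only shares became 44.8% and 38.4% (38.3% and 32.6% of all peaks). In control cells alone 1 member had peaks, beside 1.84% of all genes, and 2 (3.39%) had a start-site peak, beside 1.41%. Peaks of at least 5-fold in both lists gave ratios of 1.04, 1.03 and 1.05. With this limit 3 members were in each list alone, beside 4.66% and 2.2% of all genes. The deleted-only share was 36.8% (26.9% of all peaks), where a control peak below 5-fold no longer counts as overlap. Against the whole control list, 5 of the 106 deleted member peaks of at least 5-fold were list-only, or 4.72% beside 4.17% of all such peaks. Start-site peaks were in both lists for 17 (40.0% of all genes), in deleted cells alone for 3 (4.52%) and in control cells alone for 3 (2.0%). Peaks in deleted cells alone were found at 7 of the 44 pathway genes and 3 of the 69 members, beside the same 4.66%. With the full lists they were found at 0 and 6, so the order of the 2 sets reversed at this limit. With −log10 q of at least 5 the list-only shares were 47.0% and 22.5% (41.3% and 19.2% of all peaks). In the control list alone 3 members had peaks, beside 1.15% of all genes, and 0 had a start-site peak, beside 0.81%. The gene body alone put 1 member in the control list alone, beside 0.994% of all genes. It put 1 pathway gene in the deleted list alone, beside 6.4%. With the body and 1 kb, 1 member was in the control list alone, beside 1.02% of all genes. A start-site window of 2500 bases gave 2 start sites in control cells alone (3.39% beside 0.984%). Windows without another gene's start, an alternative chosen after the data were seen, left 48 members, 37 of them with peaks in both lists. The same limit was not applied to all genes. Of 163 alternative values, 124 moved by less than the set margin, 36 moved by more and 3 reversed. No paired analysis was possible because each group has 1 ChIP library. With 1 library per group, neither biological nor technical spread is known, the authors' peak threshold decides which weak start sites are listed, and a missing peak does not show missing acetylation.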
